A study of Noccaea caerulescens and Thlaspi montanum with 10 samples.

Results

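In leaves collected in the field, 82 transcripts of 41841 were read in every plant of Noccaea caerulescens and were missing, or nearly so, from the related species Noccaea montana. They were chosen by their read counts. Each had at least 1 CPM (the read count scaled to the total of its library) in all 4 N. caerulescens libraries, and at most 3 reads summed over both N. montana libraries. That the 82 were higher in N. caerulescens is therefore fixed by the choice, and no count or test of it is taken as a result. The N. caerulescens leaves came from subsp. firmiensis at Puy de Wolf, Firmi, labelled a nickel hyperaccumulator and collected on 5 July, and from the population called Viviez, labelled a plant that does not accumulate nickel and collected at Viviez on 5 June. The N. montana leaves, which GEO lists under the species name Thlaspi montanum and which are also labelled as not accumulating nickel, were collected at Suc de Clava on 5 June. Each plant was represented by 2 individuals with 1 polyA RNA library each, the labels name serpentine soil and a zinc mine as the natural habitats and give no treatment, genotype or age for these plants. Plant and site coincide, and the July date belongs to firmiensis only, so plant, site and date cannot be told apart.

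Noccaea caerulescens is a small relative of Arabidopsis in the cabbage family and is studied for the very high amounts of zinc, cadmium and nickel that some of its populations store in their leaves. Work on the species has centred on genes that move and bind metals, such as the pump HMA4, which loads zinc and cadmium into the water-conducting vessels, ZIP transporters, which carry metal ions into cells, and nicotianamine synthase, which makes a metal-binding compound. The deposited transcripts carry contig numbers and are not paired with gene names, so none of the 82 can be tied here to these genes or to any other function, and the leaf identity of the samples could not be checked on marker genes. All reads, also those of Viviez and N. montana, had been counted on transcripts assembled from firmiensis. A gene that N. montana lacks, a gene that its leaves do not transcribe, and reads too different in sequence to be counted on a firmiensis transcript therefore cannot be told apart in these counts. In whole leaves, fewer cells of a type and less RNA per cell cannot be told apart either.

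The 6 libraries held between 59476715 and 68439128 counted reads, and the N. montana libraries were the deepest, with 136848102 reads over both. At that depth a transcript present at 1 CPM would have given 137 reads in N. montana, and the limit of 3 reads over both libraries corresponds to 0.0219 CPM. At their own mean level in N. caerulescens, the 82 transcripts would have given between 192 and 10154 N. montana reads (median 692). The number observed was 68 reads over all 82 transcripts together. The limit of 1 CPM means that each transcript of the set had at least 60 reads in every N. caerulescens library. These limits cover counting error only.

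**Figure D1:**
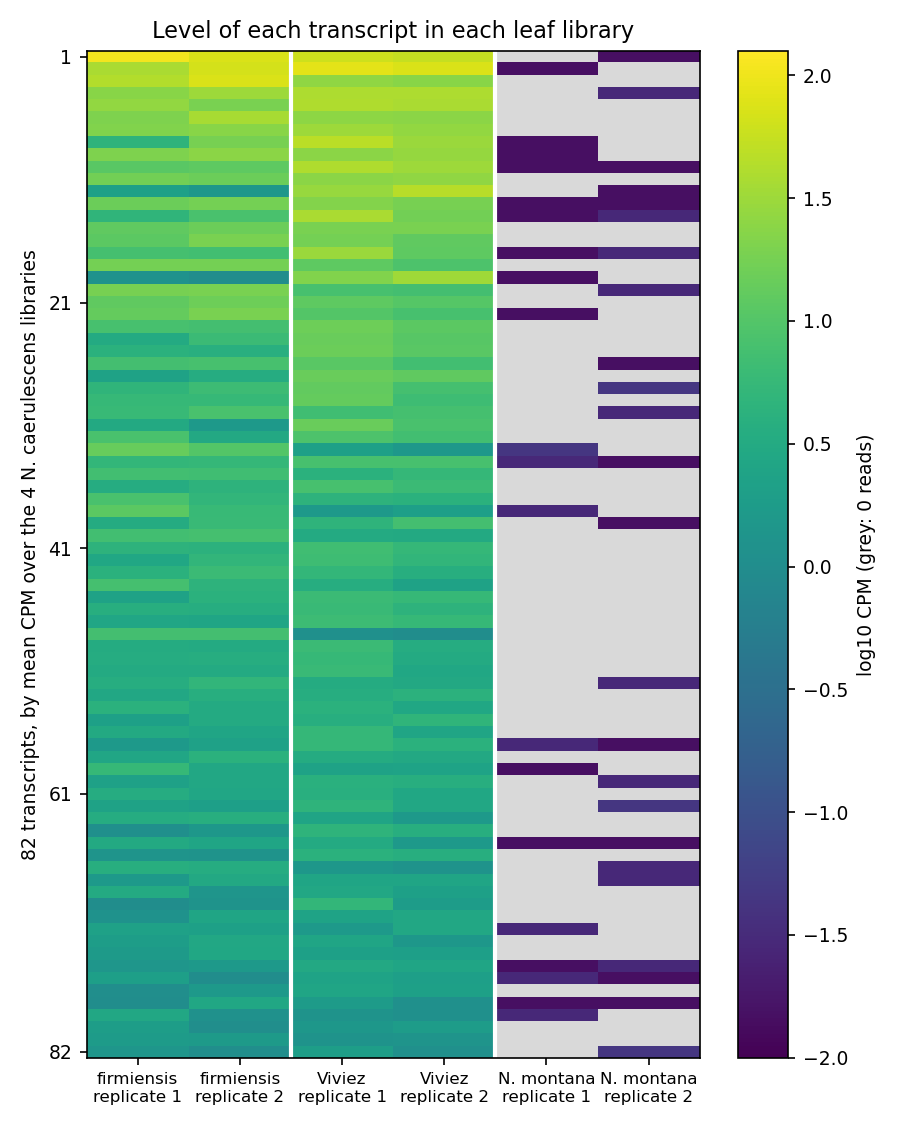
Level of each of the 82 transcripts (rows, highest mean level on top) in each of the 6 leaf libraries (columns), as log10 CPM by colour, with 0 reads in grey. The 4 N. caerulescens columns hold between 1.01 and 106 CPM in every row, and in the N. montana columns 62 and 58 of the 82 rows have no read.

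In N. montana, 48 of the 82 transcripts had no read in either individual, 10 had 1 read, 14 had 2 reads and 10 had 3 reads. Replicate 1 held 28 of these reads and replicate 2 held 40. Reads were found in replicate 1 only for 10 transcripts, in replicate 2 only for 14 and in both for 10, so the few reads did not come from 1 individual. The transcripts without a N. montana read had a median mean level of 4.58 CPM in N. caerulescens (range 1.52 to 41.9), and those with 1 to 3 reads had 6.84 CPM (range 1.40 to 74.2). Against 3 reads over the group, the 48 without a read were at least 69.3-fold to at least 1913-fold higher in N. caerulescens than in N. montana, with a median bound of 209-fold. For the 34 with 1 to 3 reads the ratio of pooled levels ran from 64.3 to 10125, with a median of 407.

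No gap in N. montana reads set the 82 apart from other transcripts. Of the 17609 transcripts that reached 1 CPM in all 4 N. caerulescens libraries, the 82 made up 0.466%. Another 61 had 4 to 10 N. montana reads, 103 had 11 to 30 and 343 had 31 to 100, while 13415 had more than 1000. At the edge, 10 transcripts had 3 reads, with a median mean level of 5.04 CPM, and were taken, and 11 had 4 reads, with a median of 4.63 CPM, and were left out. On the side of the N. caerulescens level, the lowest transcript taken was Ncfi_contig_25973, with 1.01 and 1.29 CPM in firmiensis, 5.12 and 1.84 CPM in Viviez and no read in N. montana. The nearest left out was Ncfi_contig_25550, with 3.01 and 3.14 CPM in firmiensis, 1.81 and 0.972 CPM in Viviez and no read in N. montana.

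Because the limit is a number of reads and not a ratio, well-read transcripts that were very low in N. montana are outside the set. By pooled CPM, 179 transcripts were at least 64-fold lower in N. montana, of which 81 belong to the set. The others had a median of 12.5 N. montana reads and a median mean level of 18.3 CPM in N. caerulescens. The share of transcripts in the set was smaller at higher levels. It was 1.31% of those whose lowest N. caerulescens library lay between 1 and 2 CPM, 1.04% between 2 and 5 CPM, 0.320% between 5 and 10 CPM, 0.225% between 10 and 20 CPM and 0.159% between 20 and 50 CPM. Above 50 CPM it was 1 of 2762 transcripts.

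**Figure D2:**
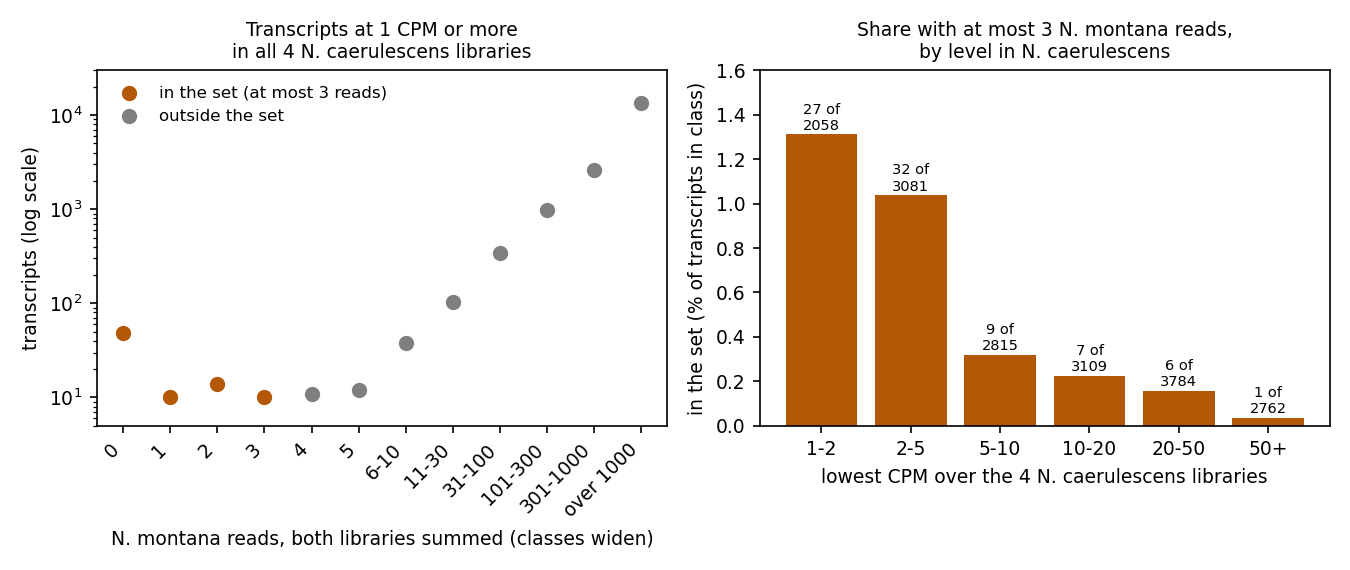
Left, number of transcripts (log scale) by N. montana reads summed over both libraries, among the 17609 with at least 1 CPM in all 4 N. caerulescens libraries; right, percentage of transcripts with at most 3 N. montana reads by the lowest CPM over the 4 N. caerulescens libraries. Single read numbers on either side of the limit hold similar counts, 10 transcripts at 3 reads, 11 at 4 and 12 at 5, the classes from 6 reads upwards are wider, and the percentage is 1.31% in the lowest class and 0.0362% in the highest.

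The transcripts were mostly of low level in N. caerulescens. The limit of 3 reads leaves out better-read transcripts that were also very low in N. montana, so this is in part set by the choice. Their mean CPM over the 4 libraries had a median of 5.06, with quartiles of 3.04 and 12.7, against a median of 18.7 over all 17609 transcripts present there. In 27 of them the lowest library lay between 1 and 2 CPM and in 32 between 2 and 5 CPM. A further 9 lay between 5 and 10 CPM and 7 between 10 and 20 CPM. The best-read group, 7 transcripts at 20 CPM or more in each of the 4 libraries, ran from 20.0 to 106 CPM in firmiensis and from 23.6 to 86.9 CPM in Viviez, and these 7 had 5 N. montana reads in all. The 10 transcripts of highest mean level held 46.2% and 50.02% of the summed level of the set in firmiensis and 43.0% and 44.3% in Viviez. All 82 together took a small part of each library, 0.0724 ± 0.00612% of the firmiensis reads, 0.0914 ± 0.0104% of the Viviez reads and 4.97e-05 ± 1.24e-05% of the N. montana reads (SD, n = 2 each).

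Ncfi_contig_7226 and Ncfi_contig_1044 were the best-read members. Ncfi_contig_7226 had 106 and 75.03 CPM in firmiensis, 60.5 and 55.7 CPM in Viviez, and no read and 1 read in N. montana replicates 1 and 2. All 4 N. caerulescens values were above 50 CPM, and the ratio of pooled levels to N. montana was 10125, with an exact 95% counting interval from 1817 to 399941. The width of that interval comes from resting on 1 N. montana read. Ncfi_contig_1044 had 38.2 and 69.7 CPM in firmiensis, 86.9 and 74.6 CPM in Viviez, and 1 read and no read in N. montana, a ratio of 9260 (1662 to 365767). At equal levels the N. montana libraries would have held 10154 reads of Ncfi_contig_7226 and 9218 of Ncfi_contig_1044. Between the N. caerulescens plants, both firmiensis values lay above both Viviez values for Ncfi_contig_7226 and below them for Ncfi_contig_1044. Neither difference passed the test, with log2 fold changes of firmiensis over Viviez of 0.70 ± 0.32 (SE, edgeR adjusted p = 0.183) and -0.55 ± 0.32 (SE, edgeR adjusted p = 0.288).

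The most even members over the 4 N. caerulescens libraries were Ncfi_contig_7292 and Ncfi_contig_14640. Ncfi_contig_7292 had 20.4 and 24.3 CPM in firmiensis, 24.8 and 27.8 CPM in Viviez, and 1 read and no read in N. montana, with an SD of log2 CPM of 0.18 over the 4 libraries. Ncfi_contig_14640 had 14.9 and 17.7 CPM in firmiensis, 21.7 and 18.5 CPM in Viviez, and 1 read in each N. montana library, with an SD of log2 CPM of 0.22. For both, the 2 firmiensis values lay below the 2 Viviez values, by less than the test required: log2 fold changes of firmiensis over Viviez were -0.19 ± 0.29 (SE, edgeR adjusted p = 0.697) for Ncfi_contig_7292 and -0.25 ± 0.21 (SE, edgeR adjusted p = 0.454) for Ncfi_contig_14640.

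**Figure D3:**
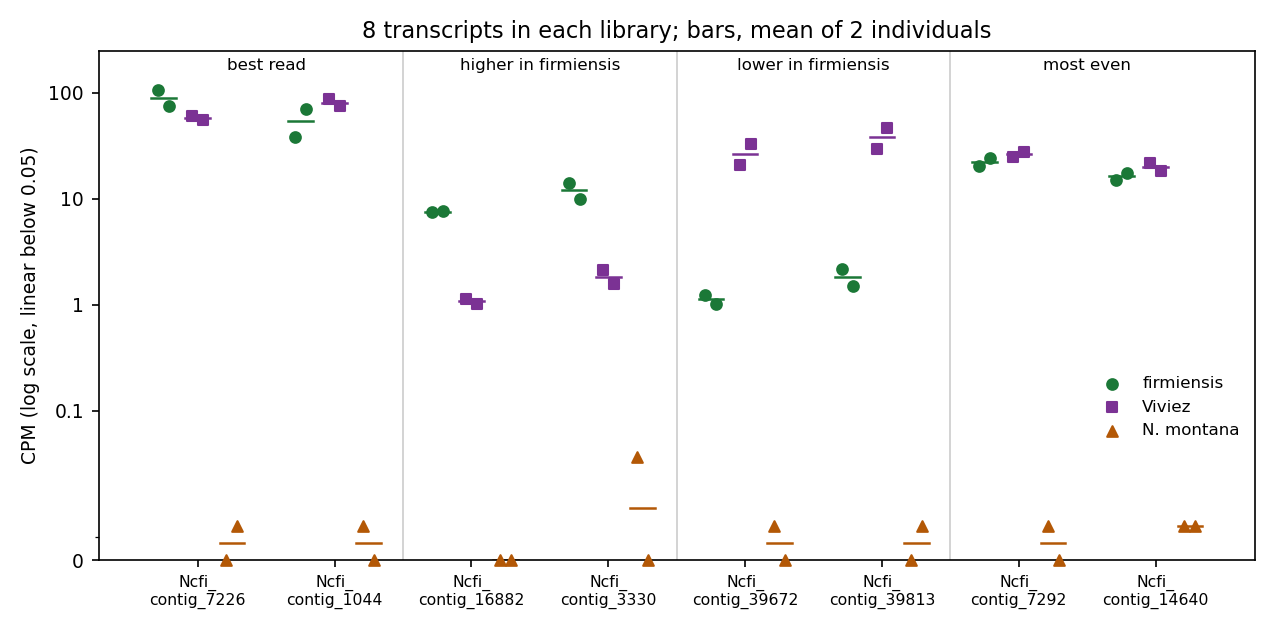
CPM (log scale, linear below 0.05) of 8 transcripts of the set in each library, with firmiensis as circles, Viviez as squares, N. montana as triangles and a bar at each mean of 2 individuals. Every N. caerulescens point lies at 1.02 CPM or above and every N. montana point at 0.0438 CPM or below.

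In the fit over all 32989 transcripts tested, 82 of 82 were higher in firmiensis than in N. montana and 82 of 82 were higher in Viviez than in N. montana by edgeR (quasi-likelihood test, p-values adjusted after Benjamini and Hochberg, threshold 0.05). Over all transcripts tested, 15.8% were called higher in firmiensis and 16.1% higher in Viviez. All 82 had passed the filter on low counts through N. caerulescens, where they had been chosen to be high, and nothing is read from these counts.

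The comparison of firmiensis with Viviez was not used to choose the transcripts, apart from the level of 1 CPM that each library had to reach. It asks whether the transcripts that N. montana lacks in these counts differ between firmiensis, labelled a nickel hyperaccumulator, and Viviez. By edgeR, 9 of the 82 (10.98%) differed, against 11.3% of the 17609 transcripts at 1 CPM or more in the same 4 libraries and 14.2% of all tested. By this test the share was near that background and so is no result about the set. Of the 9, 3 were higher in firmiensis (3.66% of the set, against 6.78% of the 17609 and 9.5% of all tested) and 6 were lower (7.32%, against 4.56% and 4.69%). At an unadjusted p under 0.05, 9 were higher (10.98%, against 15.6% of the 17609) and 14 lower (17.1%, against 13.8%). The remaining 73 did not pass the adjusted threshold, which does not show equal levels.

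Ncfi_contig_16882 and Ncfi_contig_3330 were higher in firmiensis. Ncfi_contig_16882 had 7.48 and 7.63 CPM in firmiensis, 1.13 and 1.02 CPM in Viviez and no read in N. montana. Its firmiensis values lay close together and well above those of Viviez, with a log2 fold change of 2.86 ± 0.39 (SE, edgeR adjusted p = 0.0147). Ncfi_contig_3330 had 14.0 and 10.1 CPM in firmiensis, 2.13 and 1.56 CPM in Viviez, and 3 reads and no read in N. montana. The groups did not overlap, with a log2 fold change of 2.78 ± 0.63 (SE, edgeR adjusted p = 0.0379). Without firmiensis replicate 1, Viviez replicate 1 or Viviez replicate 2, the call of Ncfi_contig_16882 was lost, with edgeR adjusted p of 0.05005, 0.0936 and 0.107 in that order. That of Ncfi_contig_3330 was lost without any of the 4 N. caerulescens libraries, with edgeR adjusted p between 0.0577 and 0.208. Over 13 alternatives the adjusted p ran from 8.85e-12 to 0.107 for Ncfi_contig_16882 and from 7.3e-08 to 0.208 for Ncfi_contig_3330, with log2 fold changes from 2.78 to 2.93 and from 2.41 to 3.07.

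Ncfi_contig_39672 and Ncfi_contig_39813 were lower in firmiensis and had the largest differences within the set by log2 fold change. Ncfi_contig_39672 had 1.24 and 1.02 CPM in firmiensis, 20.9 and 32.6 CPM in Viviez, and 1 read and no read in N. montana, with a log2 fold change of -4.51 ± 0.47 (SE, edgeR adjusted p = 0.00585). Ncfi_contig_39813 had 2.15 and 1.502 CPM in firmiensis, 29.8 and 46.4 CPM in Viviez, and no read and 1 read in N. montana, with a log2 fold change of -4.32 ± 0.47 (SE, edgeR adjusted p = 0.00616). In both, all Viviez values were far above all firmiensis values, and replicate 2 was the higher of the Viviez individuals. The calls held in all 13 alternatives, with a largest edgeR adjusted p of 0.0477 for each. Both transcripts kept nearly the same proportion to each other: the reads of Ncfi_contig_39813 were 1.73 and 1.47 times those of Ncfi_contig_39672 in firmiensis and 1.43 and 1.42 times in Viviez. This likeness was noticed after the values were seen, and without sequences it is not known here whether they belong to 1 gene.

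The 5 other transcripts that passed were 1 higher in firmiensis, by 1.27 on the log2 scale, and 4 lower, with log2 fold changes of -2.17 to -1.62. In all 9 the libraries of the plants did not overlap. Over the 17609, called or not, 26.9% were higher in firmiensis without overlap and 37.2% lower, so this adds no support to the calls. The counts of 3 and 6 rest on every N. caerulescens library: they were 1 and 3 without firmiensis replicate 1, 1 and 5 without firmiensis replicate 2, and 0 and 2 without Viviez replicate 1, and again 0 and 2 without Viviez replicate 2. The share of the 17609 that was called also fell in these fits, to 4.94%, 7.93%, 1.57% and 0.914% in the same order. Other tools called more transcripts of the set, with 8 higher and 14 lower by DESeq2 and 5 higher and 11 lower by limma voom. In all, 26.8% of the set and 23.7% of the 17609 were called by DESeq2, and 19.5% and 12.2% by limma voom. With edgeR on the 4 N. caerulescens libraries only, 6 were higher and 9 lower, 18.3% of the set against 12.5% of the 17609.

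**Figure D4:**
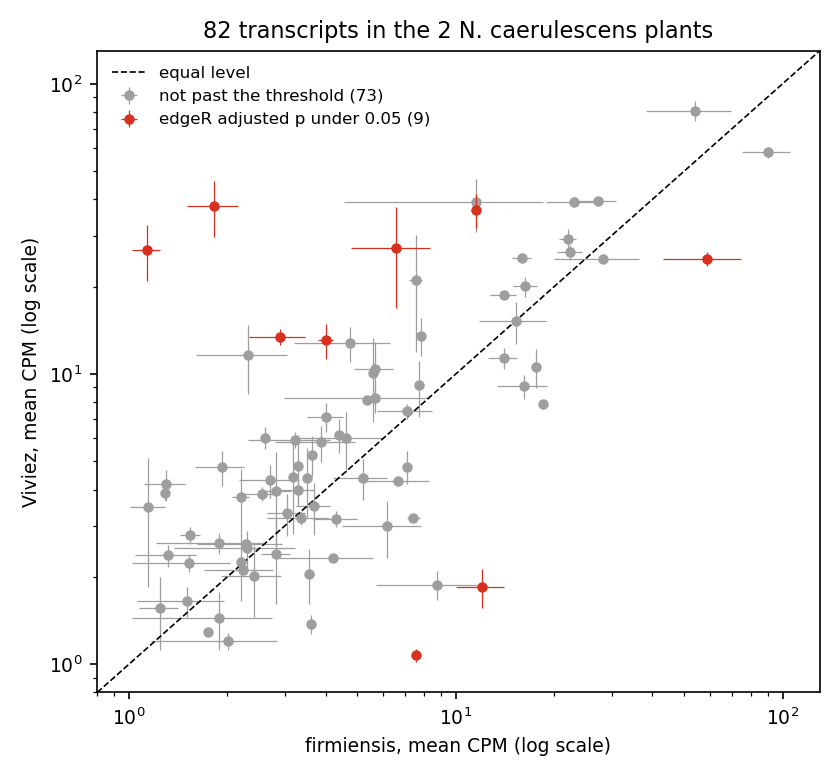
Mean CPM of the 82 transcripts in firmiensis (x axis) and Viviez (y axis), both on log scales, with lines that reach to the values of the 2 individuals and a dashed line of equal levels. The 9 transcripts past the threshold (red) are 3 below the line and 6 above it, among them 2 that stand at 1.13 and 1.83 CPM in firmiensis and at 26.8 and 38.1 CPM in Viviez.

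As a description, levels in firmiensis tended to lie below those in Viviez across the set. The summed level of the 82 transcripts was 681 and 767 CPM in firmiensis and 988 and 841 CPM in Viviez, so the groups did not overlap. Without Ncfi_contig_39672 and Ncfi_contig_39813 it was 677 and 765 CPM in firmiensis and 937 and 762.2 CPM in Viviez. The groups then overlapped narrowly, at 765 against 762.2 CPM. CPM here is unscaled, while the log2 fold changes use TMM factors, which adjust for library composition. The factors were 0.865 and 0.982 in firmiensis and 0.977 and 0.931 in Viviez. The overlap is one of unscaled CPM only: divided by these factors, both firmiensis sums lie below both Viviez sums. How far the lower sum in firmiensis rests on Ncfi_contig_39672 and Ncfi_contig_39813 was not tested. The log2 fold change of firmiensis over Viviez was positive for 29 and negative for 53 of the 82. The share of each sign over the 17609 was not counted, and transcripts within the same libraries are not independent. The median log2 fold change was -0.36 in the set, against -0.05 over the 17609 and 0.04 over all tested. Libraries did not overlap for 18 transcripts that were higher in firmiensis (22.0% of the set, against 26.9% of the 17609) and for 39 that were lower (47.6%, against 37.2%), and they overlapped for 25. By mean CPM, 8 were more than 2-fold higher in firmiensis (9.76%, against 10.99% of the 17609), 15 more than 2-fold lower (18.3%, against 8.86%) and 59 within 2-fold (72.0%, against 80.2%).

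The set was somewhat less even over the N. caerulescens libraries than transcripts present there in general, which are also better read, and the difference was not tested. All 4 libraries lay within 2-fold for 33 of the 82 (40.2%), against 58.2% of the 17609. Of the 82, 13 spanned more than 4-fold, a count not made over the 17609, so nothing is read from it. Across the 82 transcripts, the log2 mean CPM in firmiensis and in Viviez had a Pearson r of 0.670 and a Spearman rho of 0.607, and across the 17609 the Pearson r was 0.889. These describe transcripts within the same 4 libraries, which are not independent, and the set spans a narrower and lower range of levels.

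The individuals of each plant were also compared with each other, on unscaled CPM. The TMM factors of replicates 1 and 2 were 0.865 and 0.982 in firmiensis and 0.977 and 0.931 in Viviez. How far library scaling shaped the ratios between individuals was not tested. The median absolute log2 ratio between the firmiensis individuals was 0.40 over the 82, against 0.34 over the 17609, and 7 of the 82 (8.54%, against 11.1%) were more than 2-fold apart. Between the Viviez individuals the median was 0.35, against 0.21, with 5 of the 82 (6.10%, against 4.69%) more than 2-fold apart. The widest gap in firmiensis was that of Ncfi_contig_41033, singled out after its values were seen, with 4.56 and 18.5 CPM in firmiensis, 47.2 and 30.98 CPM in Viviez and 1 read in N. montana. Its firmiensis individuals were 4.06-fold apart and both lay below both Viviez individuals. The log2 fold change of -1.76 ± 0.62 did not pass the threshold (SE, edgeR adjusted p = 0.109). In Viviez the widest gap was the 2.78-fold of Ncfi_contig_25973.

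Some transcripts of the set carry neighbouring contig numbers, a pattern noticed after the values were seen. The sources used here do not give the meaning of the number order, and transcripts that are next to each other may be parts or variants of 1 gene, so the 82 transcripts need not be 82 genes. The number directly before or after also belonged to the set for 7 of the 82 (8.54%). Of the 17609 transcripts present in N. caerulescens, the 7 included, 82 (0.466%) had such a neighbour in the set, and the difference was not tested. They formed 3 runs, the longest of 3 numbers.

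In the longest run, none of the transcripts had a N. montana read. Ncfi_contig_10915 had 8.04 and 7.58 CPM in firmiensis and 15.6 and 11.6 CPM in Viviez. Ncfi_contig_10916 had 12.7 and 15.3 CPM in firmiensis and 18.7 and 18.6 CPM in Viviez. Ncfi_contig_10917 had 27.2 and 18.9 CPM in firmiensis and 40.8 and 37.6 CPM in Viviez. In all 3 both firmiensis values lay below both Viviez values, with log2 fold changes of -0.74 ± 0.30, -0.37 ± 0.23 and -0.70 ± 0.30 (SE), none past the threshold (edgeR adjusted p = 0.167, 0.335 and 0.180). Ncfi_contig_10914, next to the run, was well read in N. montana, with 9.21 and 12.0 CPM in firmiensis, 5.17 and 5.04 CPM in Viviez and 52.7 and 91.5 CPM in N. montana. On the other side, Ncfi_contig_10918 had no read in N. caerulescens and 3 reads in N. montana.

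In the other runs, Ncfi_contig_3080 had 7.52 and 7.97 CPM in firmiensis, 11.1 and 7.14 CPM in Viviez and 1 read in N. montana. Its neighbour Ncfi_contig_3081 had 12.6 and 15.4 CPM in firmiensis, 12.3 and 10.4 CPM in Viviez and no read in N. montana. The transcripts on either side of this pair, Ncfi_contig_3079 and Ncfi_contig_3082, stood at 36.9 and 29.5 CPM and at 42.3 and 41.4 CPM in N. montana, so both were well read there. Ncfi_contig_4869 had 17.7 and 17.4 CPM in firmiensis and 12.2 and 8.95 CPM in Viviez, and Ncfi_contig_4870 had 1.92 and 2.92 CPM in firmiensis and 2.57 and 1.46 CPM in Viviez, both with no read in N. montana. In Ncfi_contig_4869 both firmiensis values lay above both Viviez values, by a log2 fold change of 0.79 ± 0.28 that did not pass the threshold (SE, edgeR adjusted p = 0.125). The neighbours of this pair were again well read in N. montana, with 160 and 127.6 CPM for Ncfi_contig_4868 and 47.9 and 48.2 CPM for Ncfi_contig_4871. Over the whole set, 75 neighbouring transcripts that are no members were present in all 4 N. caerulescens libraries, with a median of 2740 N. montana reads, and 2 of them had 4 to 30 such reads.

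**Figure D5:**
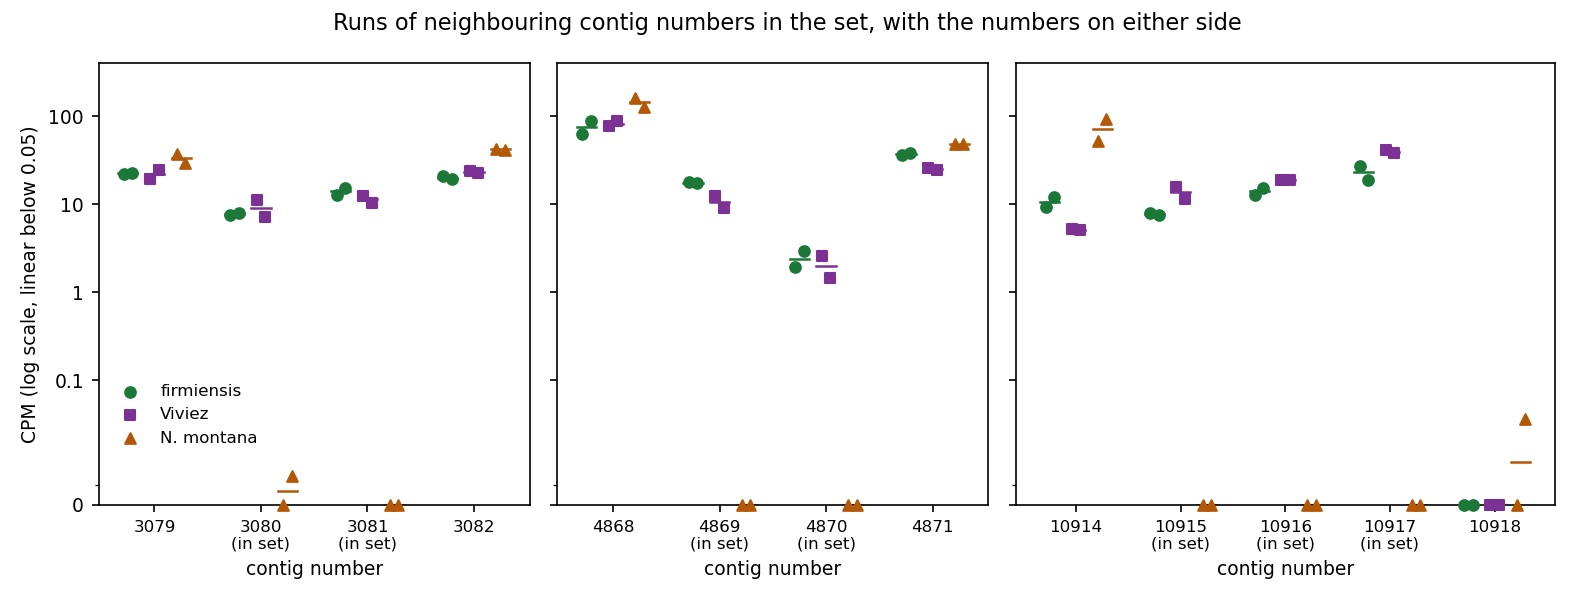
CPM (log scale, linear below 0.05) in each library of the 3 runs of neighbouring contig numbers in the set and of the numbers on either side, with firmiensis as circles, Viviez as squares, N. montana as triangles and a bar at each mean of 2 individuals. The 7 transcripts of the set lie between 1.46 and 40.8 CPM in N. caerulescens and at 0.0146 CPM or 0 in N. montana, while 5 of the 6 flanking transcripts lie between 29.5 and 160 CPM in N. montana.

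Set beside the same rule turned to the other plants, as a description without a test, 112 transcripts were missing from Viviez and present in both firmiensis and N. montana, 0.635% of the 17648 present in those 2 plants. Missing from firmiensis and present in Viviez and N. montana were 7 transcripts, 0.0404% of 17326. The share missing from N. montana, 0.466%, lay between these. The reference was assembled from firmiensis, which makes transcripts that firmiensis lacks less likely to be listed, and how far this shaped the 3 numbers was not tested. Where present, the transcripts were of similar level, with median mean CPM of 5.06 for those missing from N. montana, 5.15 for those missing from Viviez and 5.90 for those missing from firmiensis. All 3 sets share the limits of 1 CPM and 3 reads, so this likeness is in part set by the rule. The last median rests on 7 transcripts only.

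The absence of reads was shared by both N. montana individuals by the rule itself. Outside the set, a further 23 transcripts of the 17609 were read at 1 CPM or more in 1 N. montana individual and had at most 3 reads in the other. Of these, 9 were present in replicate 1, at up to 15.2 CPM, and 14 in replicate 2, at up to 54.1 CPM.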

How the data were processed

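Leaf polyA RNA of field plants had been sequenced in 6 libraries, 2 individuals each of firmiensis, Viviez and N. montana. Another 4 libraries, from hydroponic plants, were not analysed here. Per the labels' protocols, RNA was extracted with an RNeasy kit, treated with DNase and made into TruSeq stranded libraries. The authors deposited untransformed read counts for each contig, per the file headers, and the design text says that a firmiensis de novo assembly served as reference; the sources used here do not name the assembler, aligner or counting tool. Of 41843 contigs, 2 with empty cells were left out.

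The set was found on unscaled CPM. The set, the naming rule and the tests were chosen with earlier results of these data known. Named were the 2 members with the highest lowest-library CPM, the 2 largest positive and 2 largest negative called log2 fold changes of firmiensis over Viviez without overlap, the 2 with the smallest SD of log2 CPM, and the contigs nearest to the edge. Counts were tested with edgeR 4.0.16 in R 4.3.3 (filterByExpr, minimum count 10, TMM factors of 0.865 to 1.17, glmQLFit and glmQLFTest, 6 libraries in 1 model), which kept 32989 contigs and 99.96% of reads. Benjamini-Hochberg adjustment ran over all of them, with a threshold of 0.05. The SE is the log2 fold change divided by the square root of F. DESeq2 1.42.0, limma 3.58.1 voom, other filters, RLE factors, a replicate block and leaving out each library were tried. Reads shared by near-identical contigs were not resolved.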

Additional observations from a re-analysis of the deposited data

How the results depend on the processing

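The 82 transcripts became 128 when 0.5 CPM counted as present and 23 at 5 CPM, 48 when no N. montana read was allowed and 143 with up to 10. Without a library the number lay between 83 and 156, highest when a N. montana library was left out (147 without replicate 1, 156 without replicate 2), since 3 reads then apply to 1 library. It was 55 at 2 CPM and 85 with TMM-scaled CPM. The 82 calls against N. montana, which the choice fixes, also stood at 82 in all 12 alternatives of each comparison, and nothing is read from this. For firmiensis against Viviez, the 3 higher and 6 lower transcripts became 8 and 14 with DESeq2, 5 and 11 with limma voom, and 6 and 9 with the 4 N. caerulescens libraries only (18.3% of the set, against 12.5% of the 17609 transcripts present there). Without a library they lay between 0 and 4 higher and between 2 and 6 lower; leaving a plant with 1 library assumes that it varies like the others. The cause of the other changes was not tested.

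Replicate numbers did not pair the samples: deviations of same-numbered libraries correlated at 0.0155, -0.0598 and -0.0374. With the replicate number as a block, 1 transcript of the set was higher and 4 lower (6.10% of the set, against 5.82% of the 17609), Ncfi_contig_3330 missed the threshold (edgeR adjusted p = 0.0560), and calls over all transcripts fell to 2483, against 4680 without it. With 2 individuals per plant, small differences were not detectable.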
